A study of Mus musculus with 6 samples.

Results

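The phagocyte NADPH oxidase genes Cybb, Cyba, Ncf1, Ncf4, Rac1 and Rac2 were examined in transformed mouse B cell precursors with and without the ETS-family transcription factor Etv5. They were chosen by gene symbol in the platform's probe annotation and are 6 of 19938 genes with a probe set assigned to a single gene. Where a gene has several probe sets, the brightest by the mean of the 6 arrays represents it, but each of the 6 genes had 1 probe set, so this choice removed none. The samples were 3 ETV5 KO and 3 ETV5 WT preparations of total RNA, all from pre-B cells transformed by BCR-ABL1, the fusion kinase of Philadelphia chromosome-positive leukaemia, and all of strain 129SvEv. Both genotypes thus carry the oncogene and differ, by the labels, in Etv5. The sources used here do not give the age of the mice, the exons removed by the knockout allele, or whether a sample is a separate mouse, a culture or a clone. The p-values therefore set each difference against the variation among these samples, and that variation may be technical only.

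The phagocyte oxidase passes electrons from NADPH across a membrane to oxygen and so makes superoxide, the source of the respiratory burst of neutrophils and macrophages. Its catalytic core in the membrane is a heterodimer of gp91phox (also NOX2), encoded by Cybb, and p22phox, encoded by Cyba, and each partner stabilises the other. On activation the core is joined by the cytosolic subunits p47phox (Ncf1) and p40phox (Ncf4), among others, and by a GTP-bound Rac. B lymphocytes also carry the complex, at lower activity than phagocytes. Loss of a core or cytosolic subunit causes chronic granulomatous disease in humans.

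The membrane core changed and the measured cytosolic and GTPase subunits did not pass the test. Cybb was 5.42-fold higher in the knockout (95% interval 4.88 to 6.03) and Cyba was 1.47-fold higher (1.31 to 1.65). By limma with Benjamini-Hochberg adjustment over all 35556 probe sets, these 2 of the 6 genes rose, none fell and 4 did not pass. Over all 19938 genes, 2.42% were called higher, 2.01% lower and 4.43% in either direction, and 13.4% had an unadjusted p under 0.05. The genes were chosen with results of these arrays known, so their count is not read against that background. The median difference of the 6 genes was 0.09 log2 units, beside -0.0039 over all genes.

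Cybb, the catalytic subunit gene on the X chromosome, had log2 signals of 11.59, 11.70 and 11.62 in knockout samples 1 to 3, against 9.12, 9.20 and 9.28 in wild-type samples 1 to 3. Every knockout array lay over 2 log2 units above every wild-type array, whereas the arrays spanned 0.11 log2 units within the knockout and 0.16 within the wild type. The difference was 2.44 ± 0.063 log2 units (SE, limma adjusted p = 5.34e-05), from means of 11.64 ± 0.056 in the knockout and 9.20 ± 0.079 in the wild type (SD, n = 3 each). In the order of differences it stood 14th from the top of the 19938 genes. It kept its call in all 15 refits of the comparison, with differences between 2.40 and 2.48.

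Cyba, which encodes the partner subunit p22phox on chromosome 8, had log2 signals of 12.26, 12.43 and 12.30 in the knockout samples, against 11.72, 11.75 and 11.84 in the wild-type samples. The groups did not overlap, but the step was far smaller than for Cybb. The difference was 0.56 ± 0.068 log2 units (SE, limma adjusted p = 0.00983). Of the 6 fits without 1 sample, this call was lost without wild-type sample 1 (adjusted p = 0.0575) and without wild-type sample 2 (adjusted p = 0.0534), and it was lost with the sample number as a block (adjusted p = 0.0563), whereas the difference itself stayed between 0.505 and 0.593 log2 units over the alternatives. The log2 signal of Cybb minus that of Cyba on the same array was -0.69 ± 0.036 in the knockout and -2.57 ± 0.025 in the wild type (SD, n = 3 each), a shift of 1.88. The array signals of the core genes therefore changed by unequal amounts, and whether their transcripts did was not tested. Cybb minus Cyba did not overlap between the genotypes (exact permutation test over 20 splits, two-sided p = 0.10, the smallest that 3 against 3 arrays allow).

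**Figure D1:**
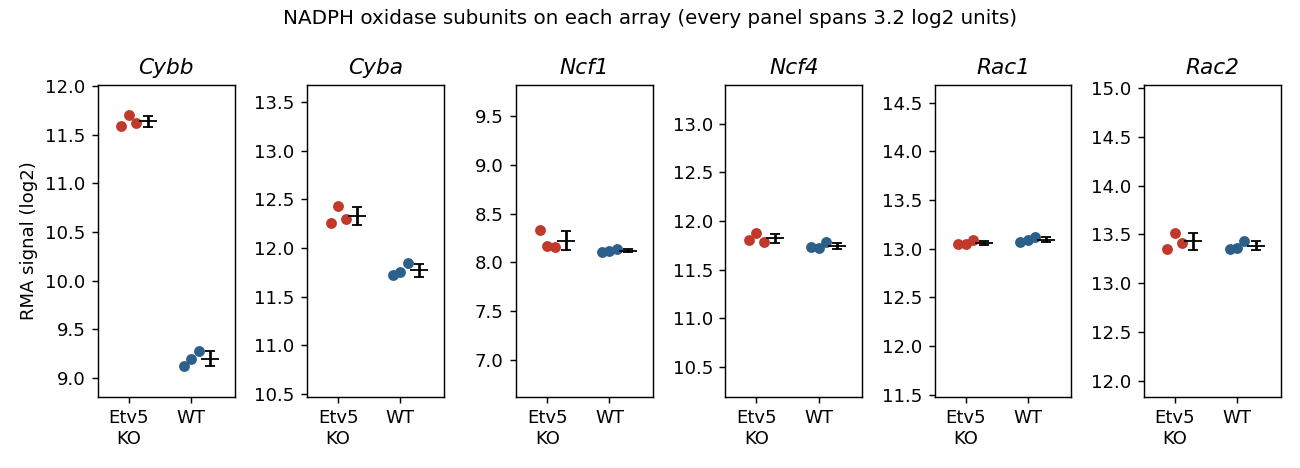
RMA signal in log2 units of the 6 subunit genes, with each Etv5 knockout array (red) to the left of the wild-type arrays (blue) and the mean ± SD of 3 arrays in black. Every panel spans the same number of log2 units, so the step of Cybb, with means of 11.64 in the knockout and 9.20 in the wild type, can be compared by eye with the smaller step of Cyba and the near-level values of the other genes.

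The cytosolic subunits did not pass the test. Ncf1 encodes the organiser p47phox, whose phosphorylation starts assembly. Its log2 signals were 8.33, 8.17 and 8.16 in the knockout samples, against 8.11, 8.12 and 8.13 in the wild-type samples. The knockout values all lay above the wild-type values, yet by an amount set largely by knockout sample 1: the difference was 0.10 (95% interval -0.05 to 0.25, limma adjusted p = 0.734) and 0.04 without that sample. Ncf4 encodes p40phox, which binds phosphatidylinositol 3-phosphate on phagosomes. It had log2 signals of 11.80, 11.87 and 11.79 in the knockout samples, against 11.73, 11.72 and 11.78 in the wild-type samples. These too did not overlap, with a difference of 0.08 (95% interval -0.05 to 0.20, adjusted p = 0.749). The intervals leave room for a rise of array signal of up to 1.19-fold in Ncf1 and 1.15-fold in Ncf4. Both lie below the lower bound of 1.31-fold for Cyba. Ncf1 was the dimmest of the subunit genes, with a mean of 8.17 over all arrays beside 12.05 for Cyba. RMA compresses differences of dim probe sets, so its bound need not hold for the transcript.

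The GTPase subunits were bright in both genotypes. Rac2, the blood cell form of Rac that serves the neutrophil oxidase, had log2 signals of 13.35, 13.52 and 13.42 in the knockout samples, against 13.36, 13.36 and 13.44 in the wild-type samples. Rac1, the ubiquitous form, had 13.04, 13.05 and 13.09 in the knockout samples, against 13.07, 13.09 and 13.12 in the wild-type samples. The genotypes overlapped for both genes. The differences were 0.04 for Rac2 (95% interval -0.11 to 0.20) and -0.03 for Rac1 (95% interval -0.15 to 0.08), with a limma adjusted p of 0.943 for each. In all, 4 of the 6 genes (Cybb, Cyba, Ncf1 and Ncf4) had knockout arrays wholly above the wild-type arrays, as did 10.2% of all genes, and 0 had them wholly below, as did 10.2% of all genes.

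**Figure D2:**
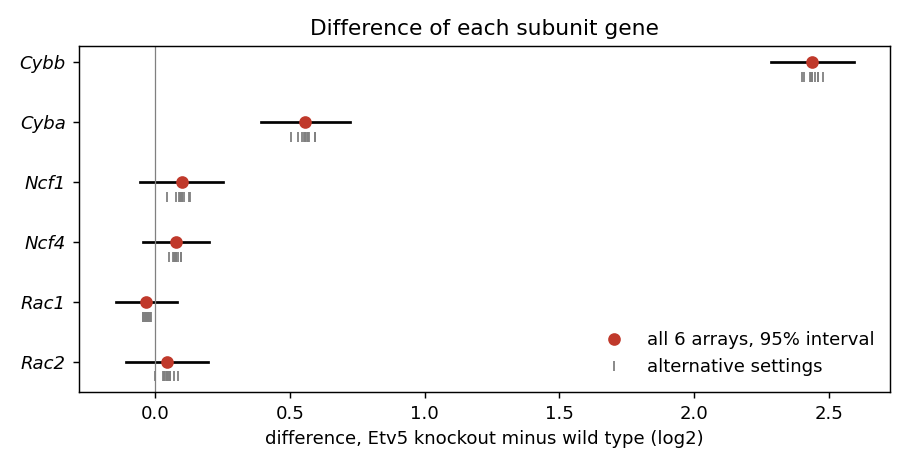
Log2 difference, Etv5 knockout minus wild type, for each subunit gene with its 95% interval (dot and line) and the same value under the alternative settings (grey ticks). The intervals of Cybb and Cyba lie above 0, those of Ncf1, Ncf4, Rac1 and Rac2 include 0, and the ticks stay inside the intervals.

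**Figure D3:**
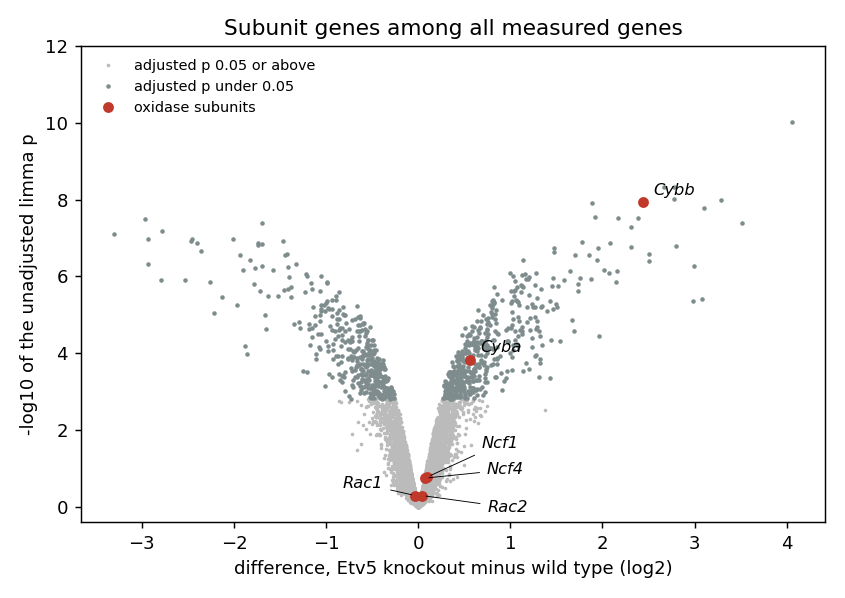
Each point is a gene, placed by its log2 difference, Etv5 knockout minus wild type, and by -log10 of its unadjusted limma p, with dark points passing an adjusted p of 0.05. Cybb at 2.44 stands among the few genes of largest rise, Cyba at 0.56 lies within the body of risen genes, and the other 4 subunit genes sit at the foot of the plot.

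ETS-family factors read short motifs around the core GGAA. Proximal promoters are shown for Cybb, Cyba and Ncf1, the 3 of the 6 subunit genes with a matching RefSeq promoter entry. They were not picked by their change, so they are no planned contrast of risen and other genes. The myeloid and B lineage ETS factor PU.1 (Spi1) is known to act on the human promoters of CYBB and NCF1. Each window runs from 250 bases before to 50 bases after the gene's start in RefSeq, assembly GRCm38.p6, and is read along the gene. These are Cybb at chrX:9469275-9469574, Cyba at chr8:122432891-122433190 and Ncf1 at chr5:134229576-134229875, all on the minus strand. Capitals mark GAGGAA, the longer ETS motif preferred by PU.1, or its reverse complement TTCCTC.
Cybb: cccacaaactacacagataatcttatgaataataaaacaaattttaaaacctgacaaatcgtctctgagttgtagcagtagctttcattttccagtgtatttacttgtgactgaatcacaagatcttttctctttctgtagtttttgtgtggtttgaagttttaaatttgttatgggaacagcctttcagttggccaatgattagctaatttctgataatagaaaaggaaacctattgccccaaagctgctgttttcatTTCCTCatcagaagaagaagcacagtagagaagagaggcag
Cyba: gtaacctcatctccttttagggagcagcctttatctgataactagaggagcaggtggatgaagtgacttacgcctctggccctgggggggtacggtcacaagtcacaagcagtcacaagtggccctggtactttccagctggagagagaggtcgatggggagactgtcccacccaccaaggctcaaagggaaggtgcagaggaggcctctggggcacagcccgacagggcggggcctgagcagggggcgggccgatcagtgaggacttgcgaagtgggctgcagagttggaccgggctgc
Ncf1: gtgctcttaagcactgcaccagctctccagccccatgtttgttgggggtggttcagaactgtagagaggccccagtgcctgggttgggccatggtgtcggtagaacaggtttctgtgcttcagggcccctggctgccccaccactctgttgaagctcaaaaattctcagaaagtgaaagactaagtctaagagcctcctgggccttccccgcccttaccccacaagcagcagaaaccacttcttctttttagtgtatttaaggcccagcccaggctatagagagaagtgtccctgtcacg
The Cybb window holds 1 such motif, at bases 260 to 265 counted from 1 at its 5′ end and on the opposite strand, where it contains a GGAA core. The motif thus lies after the gene's start, in the last 50 bases of the window. The Cyba and Ncf1 windows hold none, and CCGGAA, the motif of many other ETS factors, is in none of the 3 windows on either strand. Among 32851 RefSeq promoter windows of the same length, 28.3% hold GAGGAA and 14.9% CCGGAA on either strand. The bare core GGAA occurs 4 times in the Cybb window, 2 times in Cyba and 1 time in Ncf1, and 96.0% of all windows hold it. A CCAAT box lies at bases 195 to 199 of the Cybb window, as in 37.4% of all windows on either strand. The windows also differ in composition, with 35.3% G and C in Cybb, 60.7% in Cyba and 54.0% in Ncf1. These matches describe letters and do not show binding.

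None of the genes next to Cybb or Cyba was called higher. The 5 measured protein-coding neighbours on each side were taken from the RefSeq gene order, a choice made after the subunits' values were known. Beside Cybb, 1 of 10 neighbours changed: Xk, the adjoining gene for the Kx blood group membrane protein, fell. Xk had log2 signals of 8.80, 9.01 and 9.05 in the knockout samples, against 9.63, 9.65 and 9.70 in the wild-type samples, a difference of -0.71 ± 0.079 (SE, limma adjusted p = 0.00692). Of the 10, 3 had an unadjusted p under 0.05, Xk included. Over all genes, 4.43% were called in either direction and 13.4% had an unadjusted p under 0.05. Fthl17f, a ferritin heavy chain-like gene, had knockout arrays wholly above the wild-type arrays. Its means were 7.45 in the knockout and 7.09 in the wild type (difference 0.35, limma adjusted p = 0.222). The wild-type mean lay under 7.27, the 95th percentile of 1035 olfactory receptor probe sets, so the size of the difference is uncertain. Dynlt3, a dynein light chain gene on the other side, differed by -0.25 (adjusted p = 0.0603). Beside Cyba, 0 of 10 neighbours passed limma and 0 had an unadjusted p under 0.05, with differences between -0.04 and 0.03.

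Ncf4 and Rac2 lie in the same stretch of chromosome 15, on either side of cytokine receptor genes. Next to Ncf4, Csf2rb2, a beta chain gene of the mouse interleukin 3 receptor, rose. It had log2 signals of 10.46, 10.64 and 10.61 in the knockout samples, against 9.75, 9.76 and 9.85 in the wild-type samples (difference 0.78 ± 0.067, SE, limma adjusted p = 0.00266). Its close copy Csf2rb, whose transcripts may share probes with it, differed by 0.39 (adjusted p = 0.0763), and Tst, a thiosulfate sulfurtransferase gene, by -0.31 (adjusted p = 0.0518). These 3 of the 10 neighbours of Ncf4 had an unadjusted p under 0.05, beside 1 of 10 for Ncf1 and 1 of 10 for Rac2. Over all genes, 13.4% had an unadjusted p under 0.05 and 4.43% were called in either direction. Next to Rac2, Cyth4, an exchange factor gene for ARF GTPases, rose by 0.61 (adjusted p = 0.0157). That call was lost in 4 of 6 fits without 1 sample: knockout sample 2 (adjusted p = 0.0604), knockout sample 3 (0.0775), wild-type sample 1 (0.0813) and wild-type sample 2 (0.0712). Of the neighbours of Ncf1, Auts2, a gene of neural development, fell by 1.18 (adjusted p = 0.00298), and of those of Rac1 none passed limma and 1 had an unadjusted p under 0.05.

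**Figure D4:**
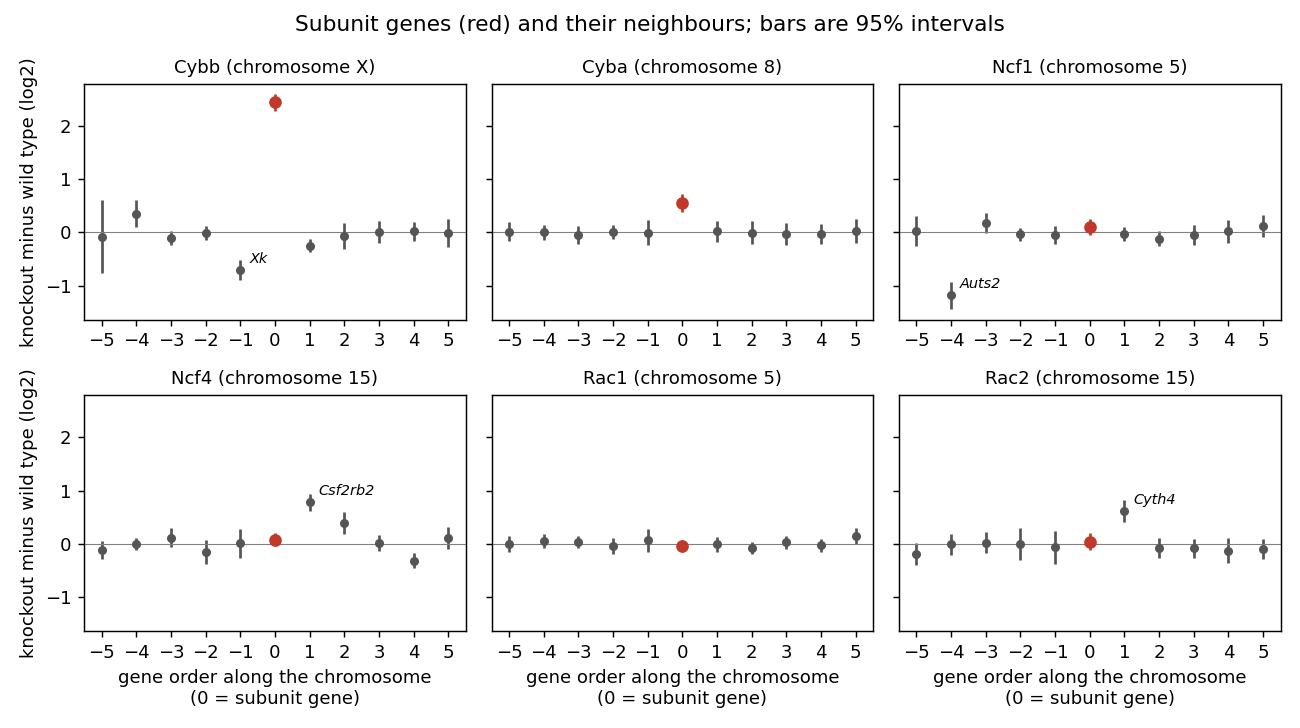
Log2 difference, Etv5 knockout minus wild type, of each subunit gene (red, position 0) and of its 5 measured neighbours on each side in gene order, with 95% intervals. Cybb stands alone at 2.44 beside Xk at -0.71, the neighbours of Cyba lie near 0, and Csf2rb2 and Cyth4 are the named neighbours of Ncf4 and Rac2.

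Other oxidase components did not pass. Of 11 measured genes of this list, limma called 0, beside 4.43% of all genes. Beside 13.4% of all genes, 1 of the 11 had an unadjusted p under 0.05. That gene was Cybc1, which encodes the chaperone EROS needed for the gp91phox and p22phox pair. It had log2 signals of 11.45, 11.67 and 11.55 in the knockout samples, against 11.25, 11.31 and 11.37 in the wild-type samples. The groups lay apart, with a difference of 0.25 (95% interval 0.07 to 0.43, adjusted p = 0.226). Hvcn1, the voltage-gated proton channel that balances the charge moved by the oxidase in B cells and phagocytes, differed by 0.13 (adjusted p = 0.678). Of the list, 6 genes in each genotype had means under 7.27, the 95th percentile of 1035 olfactory receptor probe sets, and so were not shown to be above background. They included the catalytic homologues Nox1, Nox3 and Nox4. Nox3 averaged 6.31 in the knockout and 6.44 in the wild type, and Nox4 averaged 5.54 in the knockout and 5.53 in the wild type. The 6 subunit genes were above that level in both genotypes.

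Of 22 measured exchange factors, GTPase-activating proteins and inhibitors of Rac, 2 rose, 0 fell and 20 did not pass, beside 2.42% of all genes called higher and 2.01% lower. An unadjusted p under 0.05 was found for 10 of the 22, beside 13.4% of all genes. The knockout arrays lay wholly above the wild-type arrays for 8 and wholly below for 4, each beside 10.2% of all genes. Both that rose encode Rac exchange factors. Def6, of T and B lymphocytes, had log2 signals of 10.01, 10.27 and 10.10 in the knockout samples, against 9.48, 9.49 and 9.57 in the wild-type samples (difference 0.62, limma adjusted p = 0.0117). Prex1, an exchange factor known to activate Rac2 in neutrophils, rose by 0.43 (adjusted p = 0.0178). These calls rest on all 6 arrays. Def6 lost its call without knockout sample 3 (adjusted p = 0.0572), wild-type sample 1 (0.0674) or wild-type sample 2 (0.0599), and Prex1 in 5 of 6 such fits, all but that without wild-type sample 3 (highest adjusted p 0.0768). The Rac GTPase-activating gene Chn2 had the largest difference among those that did not pass, at -0.30 (adjusted p = 0.236).

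Of 16 kinase and lipid enzyme genes of oxidase activation, Pik3r5 fell, 0 rose and 15 did not pass, beside 4.43% of all genes called in either direction. An unadjusted p under 0.05 was found for 4 of the 16, beside 13.4% of all genes. The knockout arrays lay wholly above the wild-type arrays for 1 gene and wholly below for 4, each beside 10.2% of all genes. Pik3r5, the regulatory subunit p101 of the G protein-coupled phosphoinositide 3-kinase, had log2 signals of 9.16, 9.42 and 9.32 in the knockout samples, against 9.86, 9.81 and 9.88 in the wild-type samples (difference -0.55, limma adjusted p = 0.0159). It lost its call in 4 of 6 fits without 1 sample: knockout sample 3 (adjusted p = 0.073) or any of wild-type samples 1 to 3 (0.0825, 0.0619 and 0.066). The protein kinase C gene Prkce differed by 0.37 (adjusted p = 0.0757).

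Of 15 measured transcription factor genes known to act on phagocyte oxidase genes, 1 fell, 0 rose and 14 did not pass. That stands beside 4.43% of all genes called in either direction. An unadjusted p under 0.05 was found for 2 of the 15, beside 13.4% of all genes. Spi1, encoding PU.1, had log2 signals of 11.61, 11.85 and 11.80 in the knockout samples, against 11.40, 11.40 and 11.53 in the wild-type samples. Its groups lay apart, with a difference of 0.31 (95% interval 0.12 to 0.50, limma adjusted p = 0.15). Irf8, a partner of PU.1 that drives CYBB in human myeloid cells, was the gene that fell: 11.77, 11.85 and 11.78 in the knockout samples, against 12.10, 12.11 and 12.21 in the wild-type samples. Its fall by 0.34 (adjusted p = 0.0315) lost its call in each of the 6 fits without 1 sample (adjusted p 0.0663 to 0.146). Cebpa, a myeloid regulator, differed by -0.03 (adjusted p = 0.959).

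Etv5 has 2 probe sets in the annotation. Probe set 10438626 had means of 8.93 ± 0.033 in the knockout and 9.37 ± 0.14 in the wild type (SD, n = 3 each; difference -0.43, limma adjusted p = 0.0467), a call lost in every fit without 1 sample (adjusted p up to 0.18). Probe set 10363901 had 11.76 ± 0.11 in the knockout and 11.49 ± 0.031 in the wild type (difference 0.28, adjusted p = 0.13). Where their probes lie relative to the deletion is not known here, so neither checks the deletion itself.

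Most antioxidant and redox genes did not pass the test, and none of the superoxide dismutase genes Sod1, Sod2 and Sod3 did. Of 28 measured antioxidant and redox genes, 2 rose, 2 fell and 24 did not pass, with a median difference of -0.01, beside 4.43% of all genes called in either direction. An unadjusted p under 0.05 was found for 7 of the 28, beside 13.4% of all genes. The knockout arrays lay wholly above the wild-type arrays for 8 genes and wholly below for 4, each beside 10.2% of all genes. Txnip, which encodes an inhibitor of thioredoxin, rose by 0.53 (limma adjusted p = 0.00476), with 12.20, 12.28 and 12.23 in the knockout samples, against 11.67, 11.77 and 11.69 in the wild-type samples. Cat, encoding catalase, rose by 0.29 (adjusted p = 0.0359). The secreted glutathione peroxidase gene Gpx3 fell by 0.47 (adjusted p = 0.0168). The cystine transporter gene Slc7a11 was called lower (adjusted p = 0.0174), but its means of 5.95 in the knockout and 6.52 in the wild type were both under the olfactory receptor level of 7.27, so it was not shown to be above background and no size is given. Txnip kept its call in the 6 fits without 1 sample, whereas Cat lost it in all 6 (highest adjusted p 0.172), Gpx3 in 5, keeping it without knockout sample 1 (highest 0.0808), and Slc7a11 in 4, without knockout sample 3 or any 1 wild-type sample (highest 0.0828). Sod2, the mitochondrial superoxide dismutase, and Nfe2l2, the regulator NRF2 of antioxidant genes, differed by -0.09 and 0.10 (adjusted p = 0.694 and 0.594). Glrx, a glutaredoxin gene, had the largest difference that did not pass, 0.30 (adjusted p = 0.227).

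**Figure D5:**
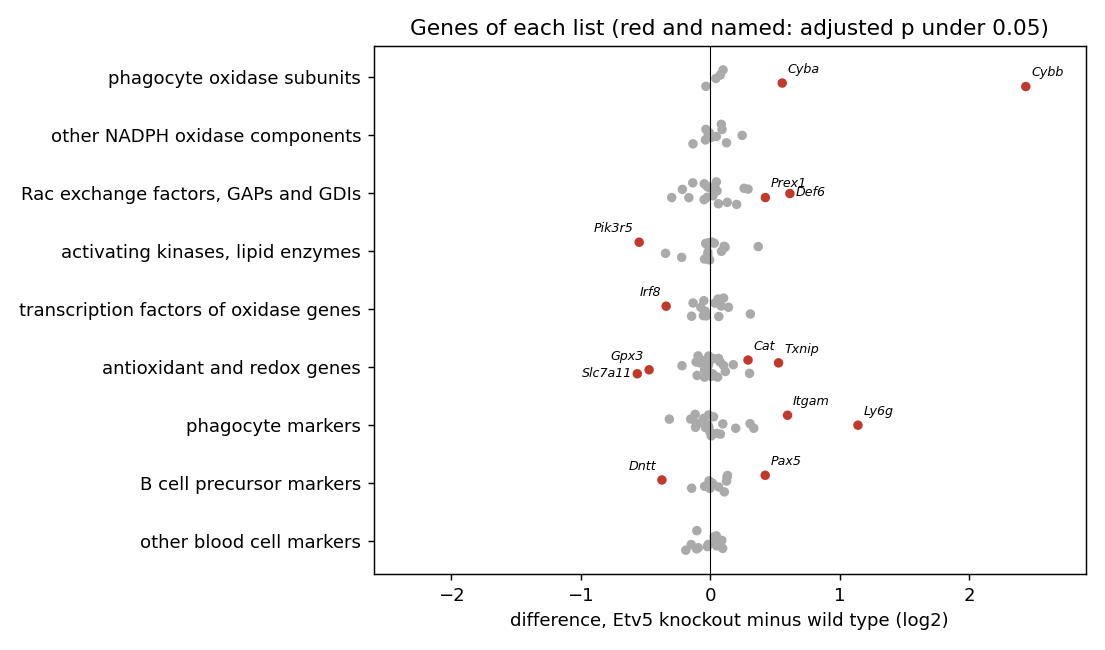
Log2 difference, Etv5 knockout minus wild type, of every measured gene in each list, 1 point a gene, with genes of adjusted p under 0.05 in red and named. Cybb at 2.44 is the largest rise shown, and the other lists centre near 0.

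The labelled cell type was checked against marker genes, because phagocytes in a sample would also carry Cybb. Of 13 measured B cell precursor markers, all were above the olfactory receptor level in both genotypes. Cd79a had means of 13.76 in the knockout and 13.63 in the wild type. Of the 13, 1 rose, 1 fell and 11 did not pass, beside 2.42% of all genes called higher and 2.01% lower. An unadjusted p under 0.05 was found for 3, beside 13.4% of all genes. Knockout arrays lay wholly above the wild-type arrays for 5 and wholly below for 2, each beside 10.2% of all genes. Pax5 rose by 0.43 and Dntt fell by 0.37 (limma adjusted p = 0.0127 and 0.0132). Both calls were lost without knockout sample 3, wild-type sample 1 or wild-type sample 2, and that of Dntt also without wild-type sample 3 (highest adjusted p 0.0751 for Pax5 and 0.0809 for Dntt). Of 24 phagocyte markers, 17 in the knockout and 19 in the wild type had means under the olfactory receptor level. The granule gene Mpo averaged 6.95 in the knockout and 6.96 in the wild type, and the macrophage receptor gene Csf1r averaged 6.82 in the knockout and 6.94 in the wild type. The lysozyme gene Lyz2 averaged 8.57 in the knockout and 8.89 in the wild type, a difference of -0.32 (adjusted p = 0.473). Cd68, a lysosomal glycoprotein gene of macrophages and the brightest of the 24 markers, averaged 9.33 in the knockout and 8.99 in the wild type, with the groups apart (difference 0.34, adjusted p = 0.278). The receptor genes Mrc1 and Fcgr1 were also apart, though under the olfactory receptor level. Mrc1 averaged 6.72 in the knockout and 6.41 in the wild type (adjusted p = 0.0795), and Fcgr1 averaged 6.84 in the knockout and 6.65 in the wild type (adjusted p = 0.308).

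Of the phagocyte markers, 2 rose, 0 fell and 22 did not pass, beside 2.42% of all genes called higher and 2.01% lower. An unadjusted p under 0.05 was found for 5 of the 24, beside 13.4% of all genes. These were Itgam, Ly6g, Cd68, Mrc1 and Fcgr1, each higher in the knockout. The knockout arrays lay wholly above the wild-type arrays for 6 markers and wholly below for 2, each beside 10.2% of all genes. Itgam, an integrin of myeloid and some B cells, rose by 0.60 (limma adjusted p = 0.0236), with means of 7.83 in the knockout and 7.24 in the wild type. Ly6g, a neutrophil antigen gene with close relatives in the Ly6 family, rose by 1.14 (adjusted p = 0.0156), with 7.54, 7.93 and 7.60 in the knockout samples, against 6.60, 6.77 and 6.28 in the wild-type samples. Both wild-type means lay under the olfactory receptor level, so the sizes are uncertain. Itgam lost its call without knockout sample 1 or 2 or wild-type sample 1 or 3 (highest adjusted p 0.112), and Ly6g without knockout sample 2 or 3 or wild-type sample 1 (highest 0.0694). The mean log2 signal of the 24 markers ran from 6.81 to 6.93 over the knockout arrays and from 6.75 to 6.86 over the wild-type arrays, which overlap. Most of the 24 were not shown to be above background, so this mean can show little of a change in the brighter markers. The part of phagocytes in the rise of Cybb was not tested. In these bulk samples, more cells that carry a transcript and more of it per cell cannot be told apart. Of 14 markers of other blood cells, limma called 0, and 1 had an unadjusted p under 0.05.

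Across the 6 arrays, the genes with profiles most like that of Cybb were Pla2g7 (Pearson r = 0.9998), Umod (0.9995) and Ank3 (0.9995), out of 1708 genes with an SD of at least 0.2 log2 units. All 3 were higher in the knockout, by 2.78, 2.78 and 1.92 log2 units. The arrays of each genotype lie apart in these genes, so the correlations mostly record the genotype difference, and any gene with a large rise and small spread would score high. Nearest to Cyba were Adgrl1 (0.9994), Zswim6 (0.9991) and Otub2 (0.9990), higher by 0.64, 0.75 and 0.69 log2 units in the knockout. Cybb and Cyba correlated at r = 0.983 with each other. For Ncf1, Ncf4, Rac1 and Rac2, whose signals varied little, the nearest genes reached r of 0.9475, 0.9685, 0.9535 and 0.9809: Mir184, Slc25a23, A630023P12Rik and Olfr190. None of these 4 genes passed limma.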

How the data were processed

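Biotin-labelled total RNA of 6 samples was measured on 1-colour Affymetrix arrays, as the labels' protocols state. The authors deposited log2 signals for 35556 probe sets, made with RMA and Partek 6.5 per the submitters' processing notes; that the scale is log2 follows from the range of the values, with array medians of 7.79 to 7.84. RMA compresses differences of dim probe sets. The sources used here do not state background settings, chip definition, filters or detection calls. The number of arrays limits the precision.

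Genotypes and sample numbers came from the sample titles. Genes were named through the platform annotation (21789 probe sets with 1 gene symbol, 1621 with several, 12146 with none) and updated through RefSeq, assembly GRCm38.p6, where 0 symbols changed. The fit was limma 3.58.1 in R 4.3.3 (lmFit, eBayes, no covariate, no filter), knockout minus wild type, Benjamini-Hochberg adjusted over all probe sets at 0.05, with 6.23 degrees of freedom. In simulated data it recovered 34 of 100 probe sets changed by 0.5 log2 units and 77 of 100 changed by 1, with 8 false calls. A gene that did not pass is therefore not shown to be unchanged. Errors are the SD of 3 arrays or the moderated SE.

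The subunit genes, pathway lists, marker lists and alternatives were chosen with earlier results of these data known. Named were the 6 subunits, up to 5 passing genes and the largest non-passing one of each pathway list, a set of always-named genes, passing markers, and the 3 genes of highest correlation with each subunit (for the 4 that did not pass, the first is printed). Promoters of 3 of the 6 genes matched the RefSeq table; those of Ncf4, Rac1 and Rac2 were not used here. List genes without a single-gene probe set in the annotation were not analysed here. A further list is not reported here. Alternatives covered a block for the sample number, removal of the dimmest 40% of probe sets, restriction to single-gene probe sets, normalization (quantile, median, cyclic loess), the variance model (trend and robust), array weights, averaging a gene's probe sets, omission of each sample, and stricter or looser thresholds.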

Additional observations from a re-analysis of the deposited data

How the results depend on the processing

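Over 15 alternative fits, Cybb kept its direction and call (limma adjusted p 8.61e-07 to 0.00307), and Cyba its direction. Leaving out 1 sample gave 565 to 857 called probe sets instead of 1095 (lowest without wild-type sample 1), 1 to 2 subunits, 0 to 2 Rac regulators, 0 to 1 activating enzymes, 0 transcription factors and 1 to 3 redox genes. The difference of Rac2 ran from -0.0012 (without knockout sample 2) to 0.0833, and that of Mpo from -0.0798 to 0.0503 (without knockout sample 3), with 0.0060 without wild-type sample 2. Sample numbers are shared between genotypes, but deviations of same-numbered samples correlated at -0.12, 0.0162 and 0.259, so they were not taken as pairs; with the sample number as a block, 544 probe sets, 1 subunit (Cyba at adjusted p = 0.0563), 0 Rac regulators, 0 activating enzymes, 0 transcription factors and 1 redox gene passed. The counts of called Rac regulators and activating enzymes were 4 and 4 without the dimmest probe sets, with single-gene probe sets only and after quantile normalization, and 4 and 3 after cyclic loess, with the variance trend and at an adjusted p of 0.10. Array weights gave 3 activating enzymes and 2 transcription factors. At an adjusted p of 0.01, 538 probe sets, 0 Rac regulators, 0 activating enzymes, 0 transcription factors and 1 redox gene passed. The causes of these shifts were not tested, and genes with both means under the olfactory receptor level, such as Nox3 and Nox4, were not shown to be above background.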
